A study of Mus musculus with 6 samples.

Results

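Wnt signalling in the heart was followed across 43 genes in 6 Agilent arrays of mouse heart RNA. The members were all genes whose array name is that of a Wnt ligand, a Frizzled (Fzd) receptor, the co-receptors Lrp5 and Lrp6, a secreted Frizzled-related protein (Sfrp or Frzb), Wif1, a Dickkopf protein (Dkk), Axin2 or Lef1. They made up 43 of 36163 gene names and 52 of 55681 probes on the array. The rule took genes by name and not by measured values, but earlier results of these data were known when it was chosen. Each gene was read from the probe with the highest mean log2 intensity.

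The arrays addressed which genes of the myocardium respond to simulated weightlessness. Total RNA from the hearts of 3 sham mice and of 3 mice tail-suspended for 28 days was compared, 1 male C57BL/6 mouse per array. Tail-suspension lifts the hindlimbs off the floor and models only some aspects of weightlessness. Sham mice were not suspended and were otherwise kept and fed like the suspended mice. The labels name no transgene or drug for either group, and they give the age as 10 weeks in the treatment protocol and as 11 weeks among the sample characteristics.

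Wnt proteins are secreted lipid-modified ligands that bind a Frizzled receptor, and with Lrp5 or Lrp6 as a partner they keep beta-catenin from being destroyed, so that it enters the nucleus and acts with Lef1 and related TCF factors. Other Wnt ligands act without beta-catenin, through cell polarity and calcium pathways. Secreted antagonists work outside the cell, Sfrp proteins, Frzb and Wif1 by holding the ligand and the Dickkopf proteins Dkk1, Dkk2 and Dkk4 by occupying the co-receptors. In the heart the pathway is known for its role in development and for its return after injury.

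The probes behind the changes described here are shown by their first 30 bases of 60, because each gene's result is the signal of that probe. Coordinates are those of the array files, on mm9, and the files used here do not say whether a probe lies in coding sequence or in an untranslated region. Fzd2 is shown by both probes because only the dimmer one passed the threshold.
Wnt5a, chr14:29336664-29336723, plus strand: cctaacccagaggttaccagcctggttttg
Wnt6, chr1:74831461-74831520, plus strand: ttcctcagaattactgggatggatgggtga
Wnt9a, chr11:59146953-59147012, plus strand: cctgagtgactgcagagaatgtatttattt
Wnt11, chr7:106001985-106002045, plus strand: gaaactgataggattaaaaataacctggca
Fzd5, chr1:64779479-64779538, minus strand: aatttcagtggcttccacaagaccttgtac
Fzd9, chr5:135724815-135724874, minus strand: tatttaatgatgtaatttattgtggcattt
Fzd2, brighter probe, chr11:102467613-102467672, plus strand: tcacagtctacatgatcaaatacctcatga
Fzd2, dimmer probe, chr11:102469045-102469104, plus strand: cgtgacattctatatcataagatattgata

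Levels are given as log2 of the processed intensity relative to the 75th percentile of the same array, so a level of 0 is the brightness of a spot at that percentile. Levels are compared between hearts for 1 probe and never between probes. The 75th percentile lay between 300 and 375, the share of probes detected well above background was 50.9% to 53.4%, and no spot was saturated. All 6 arrays lay on 1 slide, the 3 sham arrays and tail-suspension replicate 1 in row 1 and the other 2 tail-suspension arrays in row 2. A difference within row 1 therefore rests on 1 tail-suspension heart. All 8 cardiomyocyte markers were well above background on every array. Of the 5 atrial markers, Nppa and Myl4 were above background on all 6 arrays, Bmp10 on no array and Sln and Myl7 on 2 each.

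Tail-suspension was accompanied by higher Wnt6 and Wnt11 and by lower Wnt5a, Wnt9a, Fzd5 and Fzd9. These 6 of the 25 members that could be tested passed an adjusted p of 0.05 in limma with Benjamini-Hochberg adjustment over all probes, 2 higher and 4 lower. Fzd9 showed the largest difference among them, to 44.4% of its sham level. No co-receptor and no secreted antagonist passed. In bulk heart RNA, fewer cells of a type and less RNA per cell cannot be told apart.

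The share of members called, 24.0%, was close to that of all genes, of which 20.2% passed the same threshold (10.3% higher and 9.82% lower). At an unadjusted p of 0.05, 10 of 25 members passed against 37.9% of all genes. The 3 hearts of each group did not overlap for 11 members (44.0%), 2 above sham and 9 below, whereas 44.6% of all genes did not overlap, 21.8% above and 22.8% below. The median log2 fold change of the tested members was -0.05, and that of all genes -0.01. As a group the members moved about as often as genes at large on the array. The split of 2 higher and 4 lower became 0 and 5 with normexp background correction, and 0 and 4 with quantile normalization or with the authors' log2 values.

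**Figure D1:**
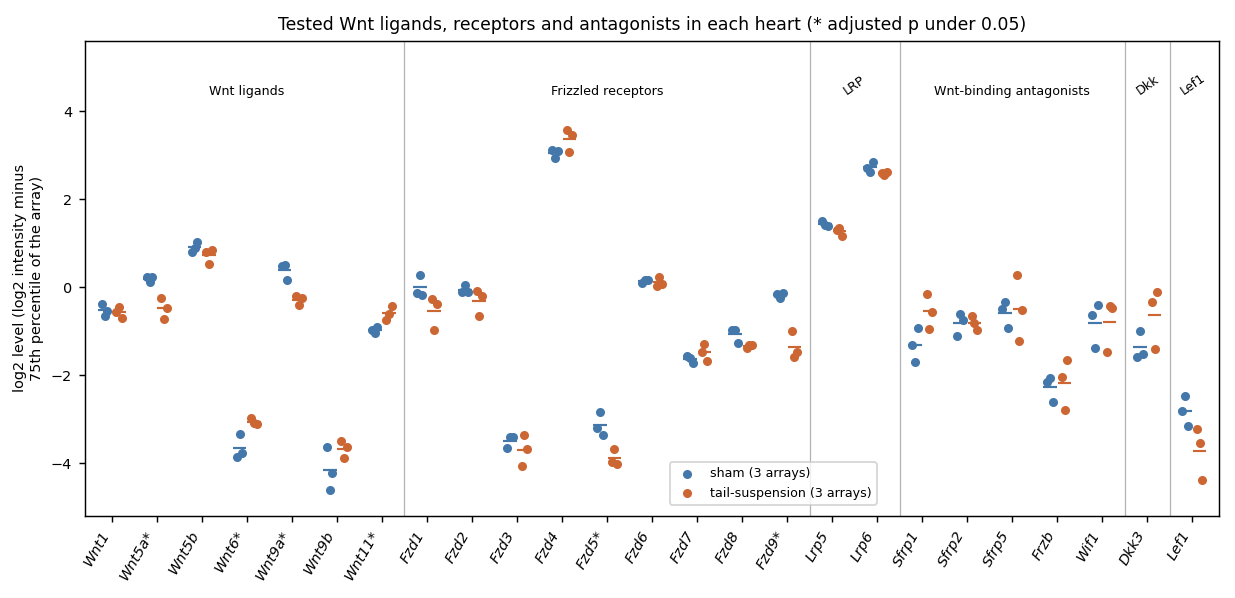
Level of each tested member in each heart, as log2 intensity minus the 75th percentile of the array, with 3 sham (blue) and 3 tail-suspension (orange) arrays, a bar at each group mean and the genes ordered by role. Points are to be compared within a gene only, and the groups are fully apart for Fzd9, from -0.25 to -0.14 in sham and from -1.59 to -0.99 in tail-suspension hearts.

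The plot of levels by heart shows 25 members. The other 18 were not well above background on every array of either group and were not tested. For 17 of them no array was above background, namely Wnt2, Wnt2b, Wnt3, Wnt3a, Wnt4, Wnt7a, Wnt7b, Wnt8a, Wnt8b, Wnt10a, Wnt10b, Wnt16, Fzd10, Dkk1, Dkk2, Dkk4 and Axin2. Sfrp4 was above background on 1 tail-suspension array and on no sham array. Their levels are known only as a bound, so no fold is given for them. Of the 25 tested members, 23 were above background on all 6 arrays, and the exceptions were Wnt9b and Lef1.

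Among the 19 Wnt ligands, 7 were tested, 2 were higher, 2 were lower and 3 did not pass. The share called was 57.1% of only 7 genes, against 20.2% of all genes. Wnt5a, the best known ligand that acts without beta-catenin, had a level of 0.22, 0.12 and 0.23 in the sham hearts and of -0.25, -0.72 and -0.48 in the tail-suspension hearts. Every suspended heart lay below every sham heart. The log2 fold change was -0.67 ± 0.13 (SE, n = 3 per group), which is 62.7% of the sham level, with an adjusted p of 0.0192 in limma. Within row 1 of the slide the difference was -0.44. The call was lost without sham replicate 1, 2 or 3 or tail-suspension replicate 3, with adjusted p between 0.0502 and 0.0627.

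Wnt9a, a ligand known from joint formation, showed a fall of similar size. Its level was 0.47, 0.51 and 0.16 in the sham hearts and -0.20, -0.40 and -0.25 in the tail-suspension hearts. The groups did not overlap, and sham replicate 3 lay nearest to the suspended hearts. This was a log2 fold change of -0.66 ± 0.12 (SE, n = 3 per group), or 63.1% of the sham level, with an adjusted p of 0.0168 in limma, and the difference within row 1 was -0.58. Without sham replicate 1 or 2 or tail-suspension replicate 3 the adjusted p was 0.0572, 0.0667 and 0.0537.

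Wnt11, which also acts largely without beta-catenin and is needed for the outflow tract of the developing heart, was higher after tail-suspension. Its level was -0.97, -1.05 and -0.92 in the sham hearts and -0.74, -0.60 and -0.44 in the tail-suspension hearts. The groups were apart, with tail-suspension replicate 1 nearest to sham. Its log2 fold change was 0.38 ± 0.11 (SE, n = 3 per group), a ratio of 1.30, with an adjusted p of 0.0473 in limma. Within row 1 the difference was 0.24. Leaving out any of the 6 arrays took the adjusted p to between 0.0547 and 0.15, and with normexp background correction the log2 fold change was 0.25 (adjusted p = 0.112).

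Wnt6 was the other ligand that was higher. Its level was -3.87, -3.33 and -3.78 in the sham hearts against -2.97, -3.09 and -3.11 in the tail-suspension hearts. The suspended hearts lay close together and above all sham hearts, of which replicate 2 was the highest. Wnt6 differed by a log2 fold change of 0.60 ± 0.15 (SE, n = 3 per group), a ratio of 1.52, with an adjusted p of 0.0383 in limma, and the difference within row 1 was 0.68. The processed intensities were only 21.8 to 31.5 in sham and 43.0 to 44.0 in tail-suspension hearts, although above background on all arrays. With normexp background correction the log2 fold change was -0.0041 (adjusted p = 0.98), and the call was also lost without any array other than sham replicate 2 (adjusted p between 0.0631 and 0.105).

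Wnt9b, known from kidney tubule formation, was above background on 1 sham and 3 tail-suspension arrays. Its level was -3.63, -4.62 and -4.23 in sham and -3.51, -3.88 and -3.63 in tail-suspension hearts. The groups overlapped through sham replicate 1, and the log2 fold change of 0.49 ± 0.25 (SE) had an adjusted p of 0.20 in limma. Wnt1, the founding member of the family, ranged from -0.65 to -0.38 in sham and from -0.69 to -0.45 in suspended hearts, and Wnt5b from 0.80 to 1.03 and from 0.53 to 0.84. The groups overlapped for both, with log2 fold changes of -0.05 (95% confidence interval -0.31 to 0.22) and -0.18 (-0.46 to 0.10). A different probe of Wnt1 was above background on no array.

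Several Wnt genes sit next to each other in the genome, and the array covers 4 pairs whose probes lie within 100 kb. In each of the 4 pairs only 1 gene was above background by the probe read for it. Wnt6 on chromosome 1 was above background on 6 arrays and Wnt10a, 19.1 kb away, on 0. On chromosome 11, Wnt9a was above background on 6 arrays and Wnt3a, 85.3 kb away, on 0, while Wnt9b was above background on 4 arrays and Wnt3, 90.1 kb away, on 0. On chromosome 15, Wnt1 was above background on 6 arrays and Wnt10b, 21.9 kb away, on 0. This holds for the brighter probe of Wnt1, since its other probe was above background on no array. The RefSeq annotation has the Wnt9b and Wnt3 genes overlapping.

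**Figure D2:**
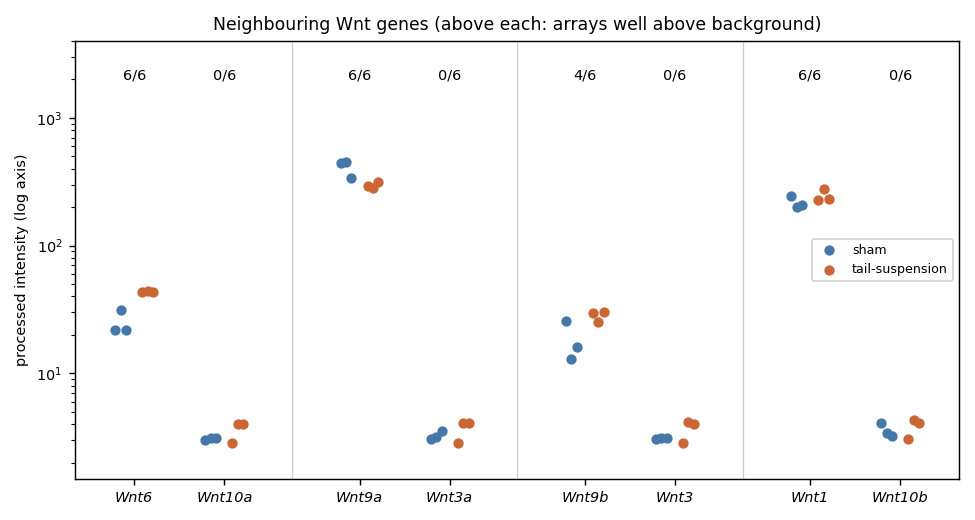
Processed intensity on a log axis for the 4 pairs of neighbouring Wnt genes in each sham (blue) and tail-suspension (orange) heart, with the number of arrays well above background over each gene. In each pair the gene on the left was above background on 4 to 6 arrays and its neighbour on 0. Wnt1 is shown by its brighter probe, and its other probe was above background on no array.

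The plot of neighbouring genes shows that Wnt10a, Wnt3a, Wnt3 and Wnt10b stayed below detection in both groups.

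Of the 10 Frizzled receptors, 9 were tested, 0 were higher, 2 were lower and 7 did not pass. The share called, 22.2%, was close to the 20.2% of all genes. The median log2 fold change of the receptors was -0.26, and 7 of the 9 estimates were negative, against 10549 of 20668 for all genes. Fzd9, a receptor known from bone formation, had a level of -0.15, -0.25 and -0.14 in the sham hearts and of -0.99, -1.59 and -1.47 in the tail-suspension hearts. The suspended hearts lay far below a narrow sham group, and tail-suspension replicate 1 was the nearest. The log2 fold change was -1.17 ± 0.16 (SE, n = 3 per group, 95% confidence interval -1.56 to -0.78), with an adjusted p of 0.00769 in limma. Within row 1 the difference was -0.81. Fzd9 passed in 18 of 19 other ways of processing, and the exception was a fit with the slide row as a block (adjusted p = 0.0535).

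Fzd5, a receptor known from the vessels of the yolk sac and from intestinal Paneth cells, had a level of -3.19, -2.85 and -3.37 in sham and of -3.98, -3.67 and -4.03 in tail-suspension hearts. The groups did not overlap. Fzd5 had a log2 fold change of -0.75 ± 0.16 (SE, n = 3 per group), or 59.3% of the sham level, with an adjusted p of 0.0257 in limma and a difference within row 1 of -0.84. A dimmer probe of Fzd5, above background on 3 sham arrays and 1 tail-suspension array, gave a log2 fold change of -0.43 (adjusted p = 0.13). Without sham replicate 1 or 2 or tail-suspension replicate 1 or 3 the adjusted p of the brighter probe lay between 0.0678 and 0.0833, and with normexp background correction its log2 fold change was -0.44.

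The probes of Fzd2 also differed, here with the dimmer one past the threshold. The brighter probe read -0.10, 0.04 and -0.12 in sham and -0.09, -0.66 and -0.21 in tail-suspension hearts, and the groups overlapped through tail-suspension replicate 1. Its log2 fold change was -0.26 ± 0.16 (SE), with an adjusted p of 0.273 in limma. The dimmer probe read -3.93, -3.58 and -3.99 in sham and -5.52, -4.94 and -4.52 in tail-suspension hearts. It was well above background in all 3 sham hearts but in no suspended heart. The fitted log2 fold change of -1.16 (adjusted p = 0.0264 in limma) thus rests on suspended signals not well above background. Set against the detection limit, the fall in the mean was at least 1.52-fold, a bound that was not itself tested. This bound sets the mean of the sham hearts against the lowest signal well above background on each tail-suspension array, or the probe's own where that was higher. The call of the dimmer probe was lost without sham replicate 1, 2 or 3 (adjusted p = 0.0677, 0.0922 and 0.053).

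The suspended hearts also lay below all sham hearts for Fzd1 and Fzd8 without passing the threshold. Fzd1 read -0.13, 0.28 and -0.18 in sham and -0.28, -0.97 and -0.38 in tail-suspension hearts, a log2 fold change of -0.54 ± 0.21 (SE, adjusted p = 0.117 in limma), and -0.27 within row 1. Fzd8 read -0.97, -0.98 and -1.26 in sham and -1.39, -1.32 and -1.32 in tail-suspension hearts, a log2 fold change of -0.27 ± 0.11 (SE, adjusted p = 0.113 in limma, and 0.0475 without sham replicate 3). The gap between the groups was narrow for both genes. Fzd4, which also binds norrin in growing retinal vessels, had the highest positive estimate among the receptors. It read 3.11, 2.94 and 3.09 in sham and 3.57, 3.07 and 3.46 in tail-suspension hearts, a log2 fold change of 0.32 ± 0.15 (SE, adjusted p = 0.159 in limma). Its groups overlapped only through tail-suspension replicate 2, and it passed without that array (adjusted p = 0.031). Fzd3 and Fzd6, both known from planar cell polarity, and Fzd7 had log2 fold changes of -0.21, -0.04 and 0.15 with overlapping groups.

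**Figure D3:**
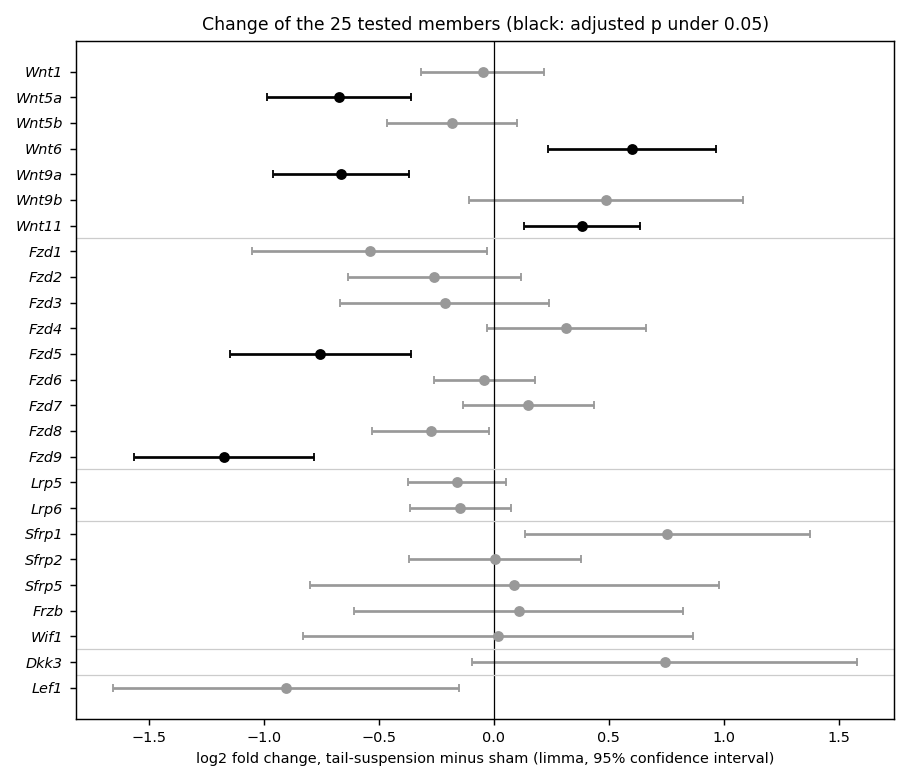
Log2 fold change, tail-suspension minus sham, of the 25 tested members with 95% confidence intervals from limma, black where the adjusted p was under 0.05. Of the 6 black points, Wnt6 and Wnt11 lie above 0 and Wnt5a, Wnt9a, Fzd5 and Fzd9 below it, and the intervals of the secreted antagonists Sfrp5 and Wif1 reach from -0.80 to 0.98 and from -0.83 to 0.87.

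The plot of changes with their intervals shows how much precision 3 hearts per group gave. The co-receptors were the most tightly measured. Lrp6, the main partner of Frizzled in the beta-catenin pathway, read 2.72, 2.63 and 2.85 in sham and 2.59, 2.55 and 2.61 in tail-suspension hearts. Lrp5, known from the control of bone mass, read 1.49, 1.40 and 1.40 in sham and 1.30, 1.34 and 1.17 in tail-suspension hearts. For both genes the suspended hearts lay just below the sham hearts. The log2 fold changes were -0.15 (95% confidence interval -0.36 to 0.07) for Lrp6 and -0.16 (-0.37 to 0.05) for Lrp5, neither of which passed. The other probe of Lrp6, also above background on all arrays, gave -0.17 with overlapping groups.

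The secreted antagonists that bind Wnt differed from the co-receptors mainly in their spread. Of the 6, 5 were tested and 0 passed, and all 5 estimates were above 0, from 0.01 to 0.76. Among all genes, 10119 of 20668 estimates were above 0. The sign of Sfrp2, Sfrp5, Frzb and Wif1 turned under at least 1 other way of processing, whereas Sfrp1 stayed positive in all 19. The median SD within the tail-suspension group was 0.58 for these 5 genes on the log2 scale, against 0.14 for all genes. Within the sham group it was 0.30, against 0.13 for all genes.

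Sfrp1, a secreted Frizzled-related protein, read -1.31, -1.69 and -0.92 in sham and -0.15, -0.95 and -0.56 in tail-suspension hearts. Only tail-suspension replicate 2 fell inside the sham range, just under its upper end. Sfrp1 had a log2 fold change of 0.76 ± 0.26 (SE, n = 3 per group), with an adjusted p of 0.0828 in limma and a difference within row 1 of 1.16. Without tail-suspension replicate 2 the adjusted p was 0.0492.

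Sfrp5 read -0.49, -0.34 and -0.92 in sham and 0.29, -1.23 and -0.53 in tail-suspension hearts, so that the suspended group held both the highest and the lowest heart. Frzb, also called Sfrp3, showed the same shape with -2.17, -2.06 and -2.61 in sham and -2.04, -2.80 and -1.66 in tail-suspension hearts. For Wif1, Wnt inhibitory factor 1, the values were -0.64, -1.39 and -0.41 in sham and -1.47, -0.43 and -0.48 in tail-suspension hearts. Here 1 heart of each group was low, sham replicate 2 and tail-suspension replicate 1. Sfrp2 read -1.11, -0.61 and -0.75 in sham and -0.65, -0.82 and -0.97 in tail-suspension hearts, with group means of -0.82 in both.

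Of the 4 Dickkopf genes only Dkk3, the divergent member that is not known as a ligand of the co-receptors, was tested. It read -1.60, -0.99 and -1.52 in sham and -0.35, -1.41 and -0.11 in tail-suspension hearts. Tail-suspension replicates 1 and 3 lay above all sham hearts, and replicate 2 lay inside the sham range. The log2 fold change was 0.74 ± 0.35 (SE, n = 3 per group), with an adjusted p of 0.17 in limma, and without tail-suspension replicate 2 it was 1.14 (adjusted p = 0.0194).

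Tail-suspension replicate 2 was the lowest of the 3 suspended hearts for 13 of the 25 tested members (52.0%), against 39.3% of all genes. Summed levels of the atrial, fibroblast, smooth muscle, epicardial, macrophage and adipocyte marker lists were also lowest in that heart among the suspended ones. The cardiomyocyte, endothelial, T lymphocyte, Schwann cell and skeletal muscle sums were not. The summed linear level of the atrial cardiomyocyte markers was 550, 178 and 640 in tail-suspension replicates 1, 2 and 3 and 101, 204 and 157 in the sham hearts, nearly all of it from Nppa, the gene of atrial natriuretic peptide. Myl4, the other atrial marker tested, had a log2 fold change of -0.63 against 1.45 for Nppa, and neither passed. For fibroblasts the sum was 326, 279 and 352 in the suspended hearts, for smooth muscle and pericytes 102, 73.0 and 80.9, for the epicardium 2.23, 1.63 and 2.47, for macrophages 28.2, 22.8 and 34.4, and for adipocytes 195, 177 and 183. Single genes made up most of several of these sums. Fabp4 made up nearly all of the adipocyte sum, Dcn most of the fibroblast sum, Wt1 most of the epicardial sum and Csf1r most of the macrophage sum. The part of these differences between hearts in the values of Dkk3 and the Sfrp genes was not tested.

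At the nuclear end of the pathway, Axin2, the feedback gene most often used to read beta-catenin activity, was above background on no array by either of its probes. Lef1, the DNA-binding partner of beta-catenin, read -2.82, -2.47 and -3.15 in sham and -3.23, -3.55 and -4.38 in tail-suspension hearts. The suspended hearts lay below all sham hearts, with a narrow gap. The log2 fold change was -0.90 ± 0.31 (SE, n = 3 per group), with an adjusted p of 0.0858 in limma, and 2 of the 3 suspended hearts were above background. It passed in 3 of 18 other ways of processing, with adjusted p between 0.0175 and 0.57, and the difference within row 1 was -0.41. A different probe of Lef1 was above background on no array, so these values rest on the brighter probe alone. Lef1 is also expressed by T lymphocytes. The summed level of 7 T lymphocyte markers was 2.70 to 2.98 in sham and 2.34 to 2.56 in suspended hearts, and Cd4 contributed most to it. The 3 tested markers, Cd4 (log2 fold change -0.28), Cd3e (-0.17) and Lck (-0.12), did not pass. Cd3d, with a mean level of -4.24 in sham and -3.84 in suspended hearts, was not tested. Cd3g, Cd8a and Tcf7 were above background on no array. The part of T lymphocytes in the values of Lef1 was not tested.

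Endothelial cells are a source and target of Wnt signals in the heart. Of their 6 markers, 3 (50%) passed the threshold as lower after tail-suspension, against 9.82% of all genes. All 6 were above background on every array, 3 were lower past the threshold (Kdr, Emcn and Tie1, with log2 fold changes of -0.55, -0.50 and -0.44) and 0 were higher. Cdh5 (-0.30), Tek (-0.23) and Pecam1 (0.19) did not pass. The summed linear level was 41.7 to 44.4 in sham and 30.7 to 34.7 in tail-suspension hearts. Of the 8 fibroblast markers only Col3a1 passed, at -1.88. Col1a1 (-0.95), Col1a2 (-0.63) and Lum (-0.64) also had every suspended heart below every sham heart, whereas Dcn (0.34) had every suspended heart above. The groups thus did not overlap for 5 of the 8 fibroblast markers (62.5%), against 44.6% of all genes. The summed fibroblast level, to which Dcn contributed most, was 282 to 298 in sham and 279 to 352 in suspended hearts. Among 7 smooth muscle and pericyte markers 0 passed. The part of these cells in the lower Wnt5a, Wnt9a, Fzd5 and Fzd9 was not tested.

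The 76 other genes of the pathway that were listed, from Wnt secretion to common target genes, gave a similar picture. Of these, 60 were tested, 6 were higher and 7 were lower, or 21.7% called against the 20.2% of all genes, and their median log2 fold change was -0.08. Among genes with a change of at least 2-fold, the Wnt agonist Rspo1 and the target gene Myc were higher, and the membrane-bound Wnt inhibitor Apcdd1 and the target gene Ccnd1 were lower. Ctnnb1, the gene of beta-catenin itself, read 3.74, 3.80 and 3.72 in sham and 3.63, 3.66 and 3.65 in tail-suspension hearts, a log2 fold change of -0.10 (95% confidence interval -0.29 to 0.08).

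Rspo1, an R-spondin that keeps Frizzled receptors on the cell surface, read -2.31, -2.44 and -2.21 in sham and -1.27, -1.14 and -1.35 in tail-suspension hearts. The groups were narrow and far apart. The log2 fold change was 1.07 ± 0.10 (SE, n = 3 per group), a ratio of 2.09, with an adjusted p of 0.0028 in limma and a difference within row 1 of 1.05. Apcdd1 read -3.18, -3.11 and -3.53 in sham and -4.21, -4.19 and -4.73 in tail-suspension hearts, where it was above background on 1 array. Its fitted log2 fold change of -1.10 ± 0.18 (SE, adjusted p = 0.0122 in limma) thus rests in part on signals not well above background, and the adjusted p was 0.0509 without sham replicate 2. With normexp background correction the log2 fold changes of Rspo1 and Apcdd1 were 0.54 and -0.46, both past the threshold.

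Myc and Ccnd1, both textbook targets of beta-catenin and of other pathways, changed in opposite directions. Myc read -2.92, -2.80 and -2.91 in sham and -0.88, -1.72 and -1.23 in tail-suspension hearts, a log2 fold change of 1.60 ± 0.21 (SE, adjusted p = 0.00594 in limma). Ccnd1, cyclin D1, read 3.40, 3.59 and 3.82 in sham and 2.95, 2.16 and 2.48 in tail-suspension hearts, a log2 fold change of -1.08 ± 0.22 (SE, adjusted p = 0.0204 in limma). Neither gene had overlapping groups. Differences within row 1 were 2.00 for Myc and -0.65 for Ccnd1. Myc passed in all 19 other ways of processing, at 0.80 with normexp, and Ccnd1 was lost without sham replicate 2 or 3 or tail-suspension replicate 3 (adjusted p = 0.0707, 0.0547 and 0.0665).

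**Figure D4:**
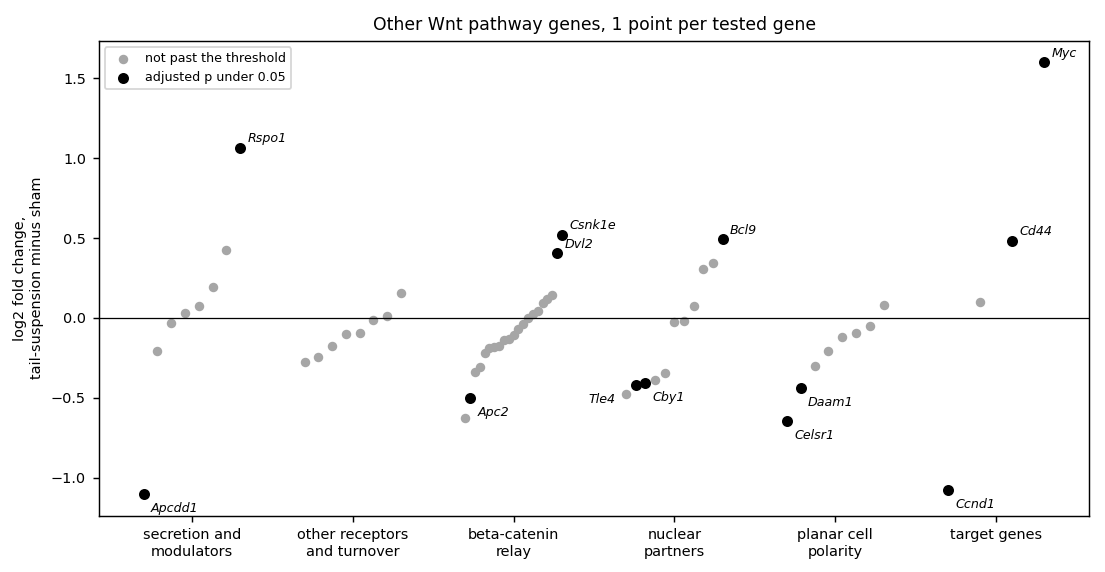
Log2 fold change, tail-suspension minus sham, of the 60 tested genes of the wider Wnt pathway, 1 point per gene in 6 classes, black and named where the adjusted p was under 0.05. The 6 black points above 0 and the 7 below are spread over several classes, and Myc (1.60), Rspo1 (1.07), Ccnd1 (-1.08) and Apcdd1 (-1.10, well above background in only 1 suspended heart) lie farthest from 0.

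The plot of the wider pathway also names the smaller changes, which were picked out after their values were seen. Higher were Csnk1e (0.52), a casein kinase 1, Dvl2 (0.40), a Dishevelled protein, Bcl9 (0.49), a coactivator of beta-catenin, and the adhesion receptor Cd44 (0.48), all as log2 fold changes. Lower were Apc2 (-0.50), a relative of the destruction complex protein Apc, Cby1 (-0.41) and Tle4 (-0.42), both repressors of transcription by beta-catenin and its partners, and Celsr1 (-0.64) and Daam1 (-0.44) of the planar cell polarity branch. None of the 8 tested genes for other receptors and receptor turnover passed, Ror2, Ryk and Lgr4 among the listed genes of that class.

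Promoters were read for the motif of TCF and LEF factors, searched as CTTTGAA or else CTTTGAT, and also as CTTTGTA or else CTTTGTT, on both strands in the 250 bases before the start of each gene in RefSeq, build GRCm38.p6. Of the 43 members, 29 had a promoter in the table. A match was found in 5 of their 35 promoters (14.3%), against 14.8% of all 32851 promoters. The 5 genes were Fzd7, Lef1, Wnt5b, Wnt11 and Dkk1, of which only Wnt11 passed the threshold. The match of Wnt11 starts 51 bases before the gene start and is shown in capitals in its reverse orientation.
Wnt11, GRCm38.p6, chr7:98835031-98835097, plus strand: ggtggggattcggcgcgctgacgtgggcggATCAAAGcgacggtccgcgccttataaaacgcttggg

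The 6 members past the threshold were recomputed in 19 other ways. Fzd9 stayed past the threshold in 18 of them, Wnt9a in 13, Wnt5a and Fzd5 in 12 each, Wnt11 in 6 and Wnt6 in 5. Fzd9, Fzd5, Wnt5a, Wnt9a and Wnt11 kept their direction in all 19, and Wnt6 in 18. With the groups fully apart for each of these genes, leaving out an array, weighting arrays or a row block could not turn a direction. Changes of the filter or of the variance model alone do not alter the fold. Mainly the alternatives with another background correction or scaling could have turned a direction.

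**Figure D5:**
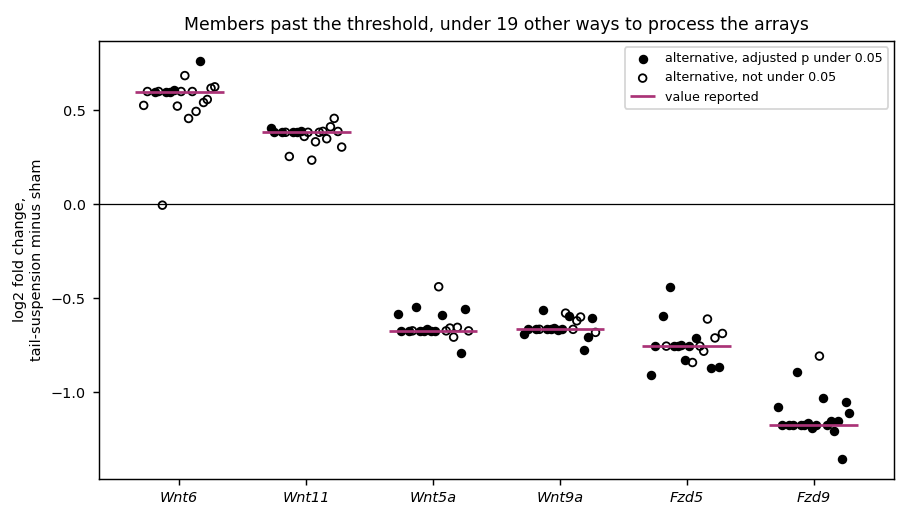
Log2 fold change of the 6 members past the threshold under 19 other ways to process the arrays, filled where the adjusted p was under 0.05, with a line at the value reported. Fzd9 ranged from -1.35 to -0.81 and passed in 18 of 19, while Wnt6 ranged from -0.0041 to 0.76 and passed in 5.

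The plot of the alternatives shows how far the size of the change in the lower genes varied. Wnt5a ranged from -0.79 to -0.44, Wnt9a from -0.78 to -0.56 and Fzd5 from -0.91 to -0.44, all below 0.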

How the data were processed

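The authors scanned the arrays and extracted each spot with Agilent Feature Extraction 10.7.1.1, per the labels. The deposited scanner files hold a processed intensity per spot, background-corrected within the array, with mean and local background intensities and detection flags. The authors also deposited log2 values of the same arrays, whose scaling is not given in the sources used here. Each of those columns had a median of 4.33 and correlated above 0.999 with its array.

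In R 4.3.3, the processed intensity was put on the log2 scale and each array's 75th percentile subtracted, without control and outlier spots (146 to 212 per array), averaging spots of a probe. The 28032 probes detected well above background in all 3 hearts of either group entered limma 3.58.1 (lmFit, eBayes, no covariates, Benjamini-Hochberg, threshold 0.05), 3 sham against 3 tail-suspension arrays. Gene counts use the genes whose brightest probe was tested. An exact permutation test of 3 against 3 cannot go below p = 0.1. The steps were tested on simulated data. Normexp background correction added an offset of 50 to every spot, which by itself makes the fold changes of dim probes smaller. Summed marker levels add linear values relative to the 75th percentile.

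Values are given for each member past the threshold, with disagreeing probes or with groups that do not overlap, for at least 1 tested member of each role, and, from the wider pathway, for genes past the threshold with a log2 change of at least 1 and Ctnnb1. Members and lists were chosen with earlier results of these data known. Amer1 was found under its older name Fam123b.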

Additional observations from a re-analysis of the deposited data

How the results depend on the processing

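With 3 arrays per group, each of the 6 member calls was lost under at least 1 alternative, Fzd9 only with the slide-row block (adjusted p = 0.0535). The 2 higher members were 0 with normexp background correction, quantile normalization, the authors' log2 values, no filter on dim probes, the methods' t-test, a replicate block or a slide-row block, 1 with an intensity trend and robust eBayes, and 0 to 3 when each array was left out in turn. Those 3, without tail-suspension replicate 2, were Fzd4, Sfrp1 and Dkk3. With an array left out, Wnt11 was never kept and Wnt6 only without sham replicate 2. The 4 lower members were 1 without the filter and with the methods' t-test, 0 with the row block and 1 to 4 with an array left out. The 6 higher genes of the wider pathway were 2 without the filter, 3 with the replicate block, 2 with the row block and 2 to 6 with an array left out, and the 7 lower ones were 2, 4, 0 and 0 to 7, 3 with the methods' t-test and 11 with array weights. Of the wider pathway, Rspo1 and Myc passed in all 19. Replicate numbers were not treated as pairs. Deviations of same-numbered arrays correlated at -0.02, -0.02 and 0.05, which does not show how the mice were allocated. The replicate block gave 5 lower members, Lef1 among them, and 3157 called probes in place of 5675. Over all probes, no filter gave 1843 calls, the methods' t-test 2659, the row block 504, array weights 8800 and leaving out an array 1769 to 5577. With normexp, Wnt6 turned to -0.0041, Wnt9b to -0.0899, Sfrp2 to -0.0305 and Frzb to -0.025. Sfrp2 also turned to -0.019 with quantile normalization, -0.0051 with the authors' log2 values, -0.022 with array weights, -0.14 without sham replicate 1 and -0.075 without tail-suspension replicate 1. Wif1 turned to -0.0027 with quantile normalization, -0.66 with the row block, and -0.27, -0.16 and -0.14 without sham replicate 2 or tail-suspension replicates 2 and 3. With an array left out, Sfrp2 ranged from -0.14 to 0.113, Wif1 from -0.27 to 0.358, Sfrp5 from -0.30 to 0.462, Frzb from -0.14 to 0.426, Wnt1 from -0.113 to 0.022 and Fzd6 from -0.103 to 0.0016. Sfrp5 turned to -0.078 and -0.30 without sham replicate 3 or tail-suspension replicate 1, Frzb to -0.056 and -0.14 without sham replicate 3 or tail-suspension replicate 3, Wnt1 to 0.022 and 0.0139 without sham replicate 1 or tail-suspension replicate 3, and Fzd6 to 0.0016 without tail-suspension replicate 1. The cause was not tested. Wnt9b and Lef1 have no value when all arrays must be above background.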
